A study of Homo sapiens with 39 samples.

Results

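The 40 genes examined here act in 2 linked stress pathways, the unfolded protein response of the endoplasmic reticulum and the integrated stress response. They were chosen by gene symbol, and all 40 were found among the 60671 distinct genes of the deposited table. RNA was measured in 39 poly-A selected libraries from A375 and WM115, established human melanoma lines. Each line was represented by unedited WT cells and by clones lacking 1 of 2 regulatory regions of SOX10, named R1 and R4. SOX10 encodes a transcription factor of the melanocyte lineage. No treatment was named for any group. In A375 there were 4 WT libraries, 3 and 4 libraries of the R1-deleted clones 1.1 and 1.2, and 4 and 3 libraries of the R4-deleted clones 4.1 and 4.2. In WM115 there were 4 WT libraries, 5 and 3 of the R1-deleted clones 1.1 and 1.2, and 3 each of the R4-deleted clones 4.1 and 4.2. A further WM115 clone, 1.3, had 3 libraries whose titles placed them with R1 and whose genotype field read R4, so it entered no comparison of the regions. Each group is 1 clone or the unedited line, so a difference can belong to the clone as well as to the deletion. Nothing stated that libraries of a group came from separate cultures, so p-values measure only the spread between these libraries.

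Proteins that fold poorly in the endoplasmic reticulum activate 3 membrane sensors: ERN1 (IRE1), which removes a short segment from XBP1 mRNA, ATF6, which is released as a transcription factor, and a kinase that slows translation. XBP1 and ATF6 raise the chaperones, folding enzymes and degradation factors of the organelle, many through a promoter motif called the endoplasmic reticulum stress element. Slowed translation favours ATF4, which also answers amino-acid shortage and oxidative stress through other kinases, and ATF4 raises amino-acid transporters, serine and asparagine synthesis enzymes, and its own regulators. The 40 genes were read in these roles: a chaperone arm of 17 (14 chaperones and folding enzymes and 3 degradation factors), 3 sensors and transcription factors, 8 regulators of the integrated stress response, an amino-acid arm of 9 (6 synthesis enzymes and 3 transporters) and 3 secreted or surface targets.

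The promoters were searched for 3 stress-response motifs. The RefSeq promoter table (GRCh38.p14) held 36 of the 40 genes, and the search took the 250 bases before each RefSeq start on both strands. Some genes have several starts, so the 36 genes had 50 windows, up to 4 for a gene, and a gene was counted if any window held a match. The matches of PDIA6 and CEBPG lie in the second window of each, and a window can lie inside the span of a longer transcript. The endoplasmic reticulum stress element, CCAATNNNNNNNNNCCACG, was in 6 of the 16 chaperone-arm genes (37.5%), in 0 of 7 amino-acid-arm genes, and in 25 of all 27305 genes with a window (0.0916%). An ATF4 half-composite, TGATGNAA, was in 4 of the 36 genes (11.1%) and in 3.89% of all genes, and TGACGTGG, the unfolded protein response element, was in 1 of the 36 and in 0.78% of all genes. A match describes letters in this window and is no evidence of binding. Many genes of the chaperone arm are known for the endoplasmic reticulum stress element, as said above. Its higher share there is thus no independent result. The whole window of HSPA5, the gene whose rise is described first below, is shown with the element in capitals, 5′ to 3′ along the gene.
HSPA5 window, chr9:125241344-125241593, minus strand: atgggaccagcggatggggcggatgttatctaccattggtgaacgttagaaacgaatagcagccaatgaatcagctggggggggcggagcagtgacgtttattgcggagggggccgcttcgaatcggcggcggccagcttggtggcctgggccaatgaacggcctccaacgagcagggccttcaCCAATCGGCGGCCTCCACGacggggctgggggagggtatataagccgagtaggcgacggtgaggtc
The other exact matches to the element follow with 12 bases on each side, the match in capitals. They are shown because 4 of these genes, HSPA5 included, rose together in the WM115 clones described next. PDIA6, CRELD2 and XBP1 also hold the element and were not among the genes that rose there with values as deposited. PDIA4 and HYOU1 rose in both of those clones and hold no exact match to it in their windows. A link between the element and the rise was not tested. A match on the opposite strand reads CGTGG to ATTGG.
HSP90B1, chr12:103930204-103930246, plus strand: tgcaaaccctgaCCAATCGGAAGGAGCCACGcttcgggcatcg
HSP90B1, chr12:103930309-103930351, plus strand: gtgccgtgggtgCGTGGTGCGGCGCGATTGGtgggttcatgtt
CALR, chr19:12938372-12938414, plus strand: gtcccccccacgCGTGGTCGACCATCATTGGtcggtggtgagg
CANX, chr5:179698766-179698808, plus strand: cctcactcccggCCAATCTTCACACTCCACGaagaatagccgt
PDIA6, chr2:10812841-10812883, minus strand: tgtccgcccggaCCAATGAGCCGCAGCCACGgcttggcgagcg
CRELD2, chr22:49918542-49918584, plus strand: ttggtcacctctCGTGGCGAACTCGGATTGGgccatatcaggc
XBP1, chr22:28800591-28800633, minus strand: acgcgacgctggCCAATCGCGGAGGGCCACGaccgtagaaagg
The matches to the 2 other motifs fell in 5 genes, HYOU1 with TGACGTGG and HERPUD1, CHAC1, CEBPG and ASNS with TGATGNAA, read on either strand.
HYOU1, chr11:119057374-119057405, minus strand: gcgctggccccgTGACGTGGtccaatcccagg
HERPUD1, chr16:56931954-56931985, plus strand: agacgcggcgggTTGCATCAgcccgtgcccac
CHAC1, chr15:40953250-40953281, plus strand: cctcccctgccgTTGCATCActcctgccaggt
CEBPG, chr19:33374059-33374090, plus strand: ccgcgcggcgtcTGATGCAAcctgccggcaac
ASNS, chr7:97872457-97872488, minus strand: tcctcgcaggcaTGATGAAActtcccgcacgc

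Values are in TPM, a length-corrected share of a library's transcripts scaled to sum to 1000000, so the number of reads behind a value is unknown and a level can be compared between genes. Between 14128 and 16140 genes reached 1 TPM in A375 libraries and between 14084 and 15528 in WM115 libraries, and the 40 genes summed to 3898 to 7085 TPM and 5149 to 8935 TPM. SOX10 was at 381 to 876 TPM in A375 and 9.56 to 553 TPM in WM115, while the pigment genes MLANA, TYR and DCT were under 1 TPM in all 18 A375 libraries. Of the leukocyte markers examined, PTPRC and CD3E were under 1 TPM in every library, LYZ was at 1.23 to 12.3 TPM in A375 and under 1 TPM in WM115, and CD68 was at 18.2 to 165 TPM in A375 and 225 to 757 TPM in WM115. Of the fibroblast markers in WM115, COL1A2 was at 365 to 857 TPM, while COL1A1, COL3A1, DCN and PDGFRA had medians of 0.549, 0.912, 0.634 and 0.926 TPM. LUM had a median of 2.16 TPM, reached 26.4 TPM and was at 1 TPM or more in 17 of 21 WM115 libraries. Mitochondrially encoded transcripts took 0.968 to 4.92% of TPM in A375 and 4.71 to 19.4% in WM115. Differences are on the log2(TPM + 1) scale, and a gene is called where limma's adjusted p across all genes tested is under 0.05. All 40 genes passed the filter for low values in every comparison, and 38 were at 1 TPM or more in every library.

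In WM115, 7 of the 17 chaperone-arm genes rose in each R4-deleted clone, where 8.59% of all genes were called higher in clone 4.1 and 6.71% in clone 4.2. GDF15, PPP1R15A and NUPR1 fell in both. HSPA5, the chaperone BiP that also restrains the sensors, stood at 416, 408, 322 and 317 TPM in the 4 WT libraries, at 678, 598 and 595 TPM in clone 4.1 and at 622, 559 and 478 TPM in clone 4.2. The 6 clone libraries lay above all 4 WT libraries. The difference was 0.78 (SE 0.14, limma adjusted p = 0.000849) in clone 4.1 and 0.60 (SE 0.14, adjusted p = 0.00648) in clone 4.2, that is 1.71-fold and 1.51-fold on TPM + 1. PDIA4, a disulfide isomerase, was the most changed chaperone-arm gene: it was at 228, 254, 208 and 150.4 TPM in WT, 489.5, 416 and 408 TPM in clone 4.1 and 464, 415 and 313 TPM in clone 4.2. Its differences were 1.08 (SE 0.24, adjusted p = 0.00398) and 0.92 (SE 0.24, adjusted p = 0.0123). HYOU1, a large co-chaperone of HSPA5, was at 129, 142, 119 and 82.5 TPM in WT, 196, 181 and 164 TPM in clone 4.1 and 232, 183 and 162 TPM in clone 4.2. All 6 clone values again lay above WT, with differences of 0.63 (adjusted p = 0.0302) and 0.71 (adjusted p = 0.0189). In bulk RNA, more cells expressing a gene and more of its RNA per cell cannot be told apart.

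The abundant calcium-binding chaperones moved the same way. HSP90B1 (GRP94) was at 819, 854, 739.7 and 695 TPM in WT, 1208, 1101 and 1173 TPM in clone 4.1 and 1402, 1260.4 and 1044 TPM in clone 4.2, and rose by 0.58 and 0.66 (adjusted p = 0.0205 and 0.0119). CALR, calreticulin, was at 1144, 1192, 883 and 926 TPM in WT and at 1319 to 1801 TPM in the 6 clone libraries, and rose by 0.48 and 0.56 (adjusted p = 0.0490 and 0.0270). CANX, its membrane-bound relative calnexin, rose by 0.37 and 0.33 (adjusted p = 0.0239 and 0.0479). SEL1L, part of the ubiquitin ligase that removes misfolded proteins, rose by 0.42 in clone 4.1 (adjusted p = 0.0471) although 1 WT library, at 37.5 TPM, lay inside the clone's range of 31.8 to 43.8 TPM. The co-chaperone gene DNAJB11 rose by 0.42 in clone 4.2 (adjusted p = 0.0285). EDEM1, which marks misfolded glycoproteins for degradation, fell by 0.54 in clone 4.1 (adjusted p = 0.0360), from 27.1 to 38.9 TPM in WT to 18.2 to 24.2 TPM. Of the 17 chaperone-arm genes, 7 rose and 1 fell in clone 4.1, and 7 rose and none fell in clone 4.2. PDIA6, DNAJB9, MANF and HERPUD1 were called in no clone of either line in the unpaired fit of each line's groups with TPM as deposited. Some alternative fits called PDIA6 or DNAJB9 in a WM115 clone.

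**Figure D1:**
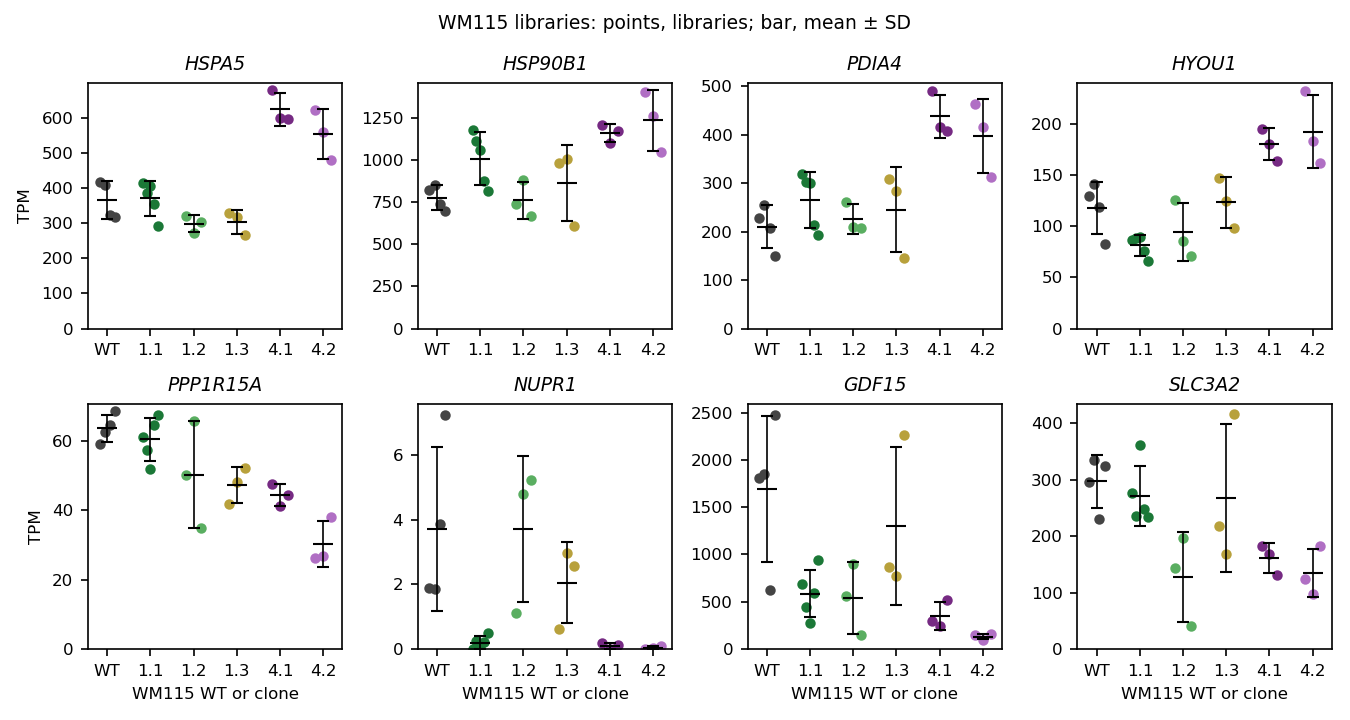
TPM of 8 genes in each WM115 library, by group, with horizontal bars for the mean and vertical bars for the SD. HSPA5, HSP90B1, PDIA4 and HYOU1 lie above every WT library in clones 4.1 and 4.2, and PPP1R15A, NUPR1, GDF15 and SLC3A2 lie below every WT library there.

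Among all genes tested in clone 4.1, 8.59% were called higher and 15.6% lower, 24.2% together. For clone 4.2 the shares were 6.71%, 13.6% and 20.3%. Of the 40 genes, 7 rose and 5 fell in clone 4.1, and 8 rose and 9 fell in clone 4.2. The 5 falls in clone 4.1 were no larger a share than the background. The median difference of the chaperone arm was 0.38 in clone 4.1 and 0.42 in clone 4.2, against -0.10 over all genes in each, and 16 and 14 of the 17 genes lay above 0. For the amino-acid arm it was -0.17 and -0.45. After median-of-ratios scaling of the TPM, which brings the median of all genes to about 0, the shares were 12.9% higher and 10.4% lower in clone 4.1 and 10.3% and 9.88% in clone 4.2. On that scale 11 of the 40 genes rose and 3 fell in clone 4.1, PPP1R15A and EDEM1 no longer among those called, and 11 rose and 6 fell in clone 4.2. These 2 clones were set against the same 4 WT libraries, so the 6 genes that rose in both with TPM as deposited, HSPA5, HSP90B1, CALR, CANX, PDIA4 and HYOU1, and the 3 that fell in both, PPP1R15A, NUPR1 and GDF15, are not independent repeats.

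GDF15, a secreted stress cytokine, showed the largest difference of the 40 genes in each of these clones. It was at 1805, 1850.0, 628 and 2476 TPM in WT, 295, 240.1 and 517 TPM in clone 4.1 and 144, 97.4 and 158 TPM in clone 4.2. All 6 clone values lay below the lowest WT library. It fell by 2.18 (SE 0.56, adjusted p = 0.00975) in clone 4.1 and fell by 3.53 (SE 0.56, adjusted p = 0.000457) in clone 4.2, 4.53-fold and 11.5-fold lower on TPM + 1. PPP1R15A (GADD34), which restores translation after stress, was at 59.2, 62.5, 64.5 and 68.6 TPM in WT, 47.6, 41.3 and 44.5 TPM in clone 4.1 and 26.2, 26.8 and 38.1 TPM in clone 4.2. It fell by 0.51 (SE 0.17, adjusted p = 0.0337) and by 1.06 (SE 0.17, adjusted p = 0.000415). NUPR1, a small stress-induced nuclear protein, was rare throughout: WT libraries held 1.88, 1.87, 3.86 and 7.23 TPM, and the 6 clone libraries held 0 to 0.185 TPM. It fell by 1.95 and 2.04 (adjusted p = 0.00155 and 0.00161), values that depend on the 1 TPM added before the log.

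ATF4 and DDIT3 passed no test in these clones. ATF4 differed by 0.01 in clone 4.1 and -0.01 in clone 4.2, and DDIT3 (CHOP), the factor tied to cell death in prolonged stress, by 0.16 and -0.34. TRIB3, an inhibitor of ATF4, fell by 0.45 in clone 4.2 (adjusted p = 0.0154). ERN1 was at 4.89, 4.21, 3.16 and 5.63 TPM in WT and 1.86, 1.61 and 2.63 TPM in clone 4.2, and fell by 0.84 there (SE 0.19, adjusted p = 0.00470). ATF6 fell by 0.41 in the same clone (adjusted p = 0.0443). XBP1 in clone 4.1 was at 110 to 134 TPM against 70.8 to 99.2 TPM in WT, a difference of 0.51 that missed the threshold (adjusted p = 0.0626) and passed it after median-of-ratios scaling of the TPM (0.64, adjusted p = 0.0228).

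In the amino-acid arm of these clones, 1 gene of 9 fell in clone 4.1, where 15.6% of all genes were lower, and 3 fell in clone 4.2, where 13.6% were. The count in clone 4.1 is not above the background. PHGDH, the first enzyme of serine synthesis, was at 127, 153, 189 and 135 TPM in WT and 81.8, 96.9 and 77.4 TPM in clone 4.1, and fell by 0.81 (SE 0.21, adjusted p = 0.0116). PSAT1, the next enzyme of that route, fell by 0.85 in clone 4.2 (adjusted p = 0.0240). SLC3A2, the shared heavy chain of amino-acid exchangers, was at 296, 335, 231 and 325 TPM in WT and 124, 97.5 and 182 TPM in clone 4.2, and fell by 1.17 (adjusted p = 0.0398). SLC7A1, a transporter of cationic amino acids, fell by 1.05 in clone 4.2 (adjusted p = 0.000469), where the median gene of its chromosome, 13, differed by -0.58. SLC7A5, the light chain that pairs with SLC3A2 to import leucine, was at 407 to 597 TPM in WT, 159 to 308 TPM in clone 4.1 and 142 to 279 TPM in clone 4.2. Its libraries did not overlap with WT, yet the differences of -1.24 and -1.43 were not called (adjusted p = 0.176 and 0.127). ASNS, asparagine synthetase, was called in neither clone. VLDLR, a lipoprotein receptor induced by ATF4, rose by 1.08 in clone 4.2 (SE 0.31, adjusted p = 0.0197), from 3.08 to 4.97 TPM in WT to 5.63 to 15.6 TPM.

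Library composition moved with the contrast in WM115. Ribosomal protein transcripts took 12.0 to 13.6% of TPM in WT and 16.2 to 18.6% in clones 4.1 and 4.2, and mitochondrial transcripts 13.7 to 15.6% in WT and 4.71 to 12.7% in these clones; the part of the ribosomal share in the results was not tested. With a term for high or low mitochondrial share (chosen after seeing the data), 3 of the 40 genes were higher and 4 lower in clone 4.1, HSPA5 by 0.61 and PDIA4 by 0.80 among the higher, and 6 were higher and 10 lower in clone 4.2. All 4 WT libraries are in the high set, and the shares of WT and of these clones do not overlap. The term therefore cannot separate the mitochondrial share from the contrast. Among libraries of high share alone, clone 4.2 kept 6 calls, all lower (PPP1R15A, TRIB3, GDF15, SLC7A1, NUPR1 and ERN1), while HSPA5 at 0.51, PDIA4 at 0.80 and HYOU1 at 0.57 were not called. The count of 12 in clone 4.1 became 5, 6 or 7 without its libraries 1, 2 or 3, and 6 without WT library 4. The count of 17 in clone 4.2 became 8 or 7 without its libraries 1 or 2, and 11 without WT library 4. The shares of all genes called in these refits are not given here. The changed counts therefore cannot be read as particular to the 40 genes. In clone 4.1, HSPA5, PDIA4, PHGDH and NUPR1 stayed past the threshold in every alternative run for them. GDF15, PPP1R15A and NUPR1 did so in clone 4.2. The log2 minimum of 1 is counted apart, and with it HSPA5 and PHGDH in clone 4.1 were not kept.

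**Figure D2:**
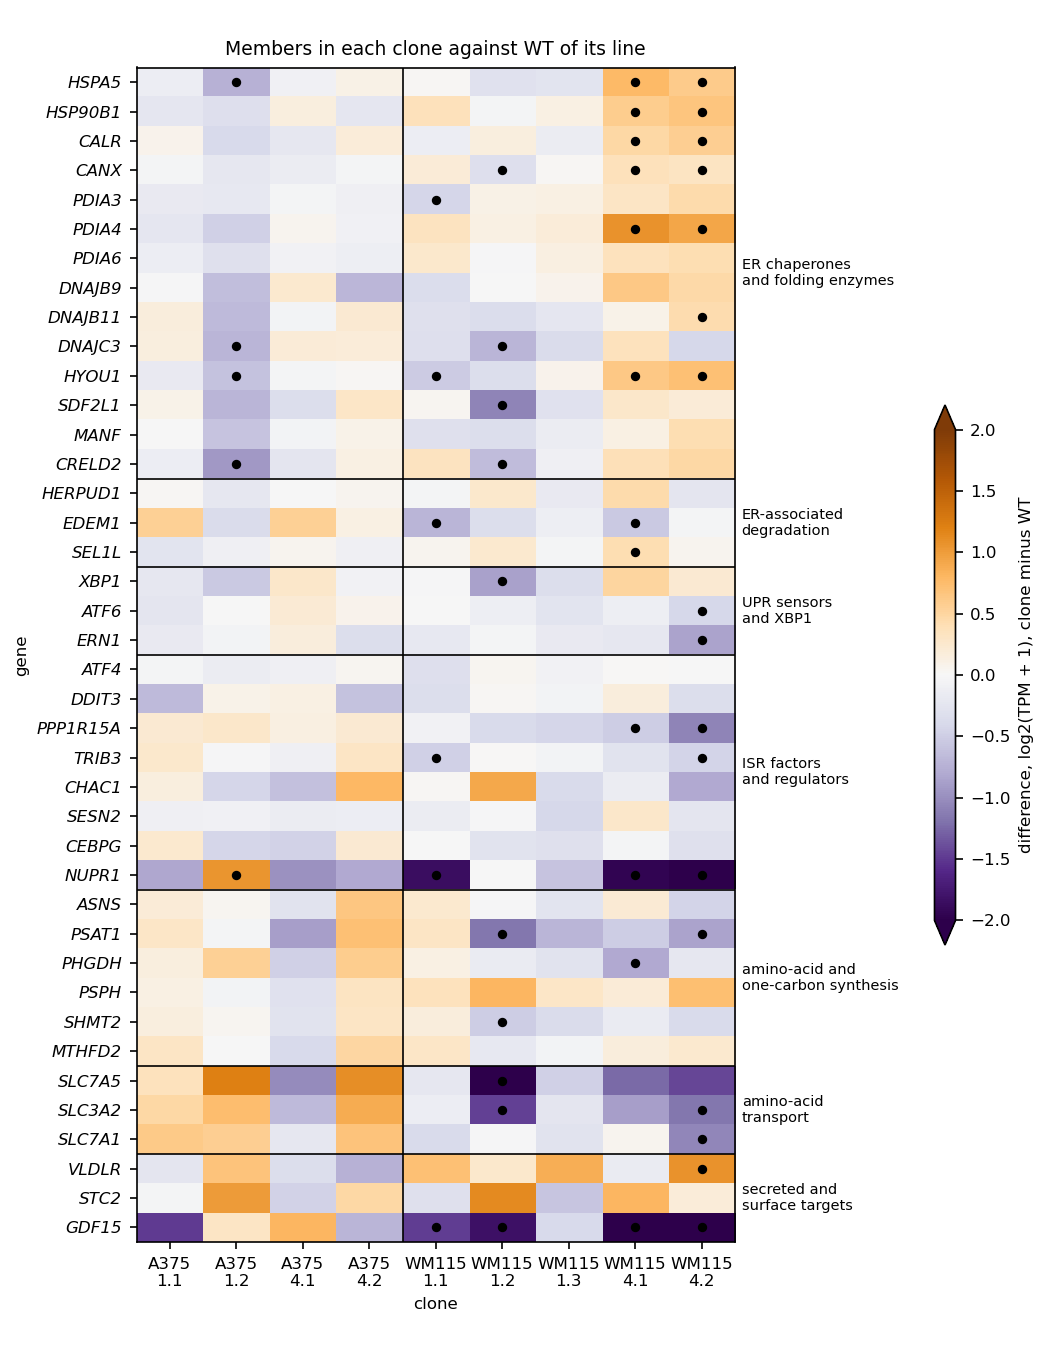
Difference from WT of the same line for the 40 genes (lines of the grid, by role) in the 9 clones (columns), as colour on the log2(TPM + 1) scale from -2 to 2, with a dot where limma called the gene. In WM115 clones 4.1 and 4.2, 7 of the 17 chaperone-arm genes are dotted and positive in each, EDEM1 is dotted and negative in clone 4.1, and GDF15 is dotted and negative in 4 WM115 clones.

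The WM115 clones lacking R1 had no called rise among the 40 genes in the unpaired fit of all WM115 groups with TPM as deposited. In clone 1.1, 6 genes fell where 22% of all genes were called (6.3% higher, 15.7% lower). The 6 falls of 40 are no larger a share than the background. The medians were -0.04 for the chaperone arm, 0.17 for the amino-acid arm and -0.12 for all genes. EDEM1 was at 27.1, 38.9, 35.0 and 28.7 TPM in WT and at 22.1, 23.2, 17.99, 19.2 and 14.9 TPM in clone 1.1, all below WT. It fell by 0.71 (SE 0.16, limma adjusted p = 0.00401). That call was kept in every alternative run except the log2 minimum of 1. HYOU1 fell by 0.52 (adjusted p = 0.0439), with 87.0, 88.5, 89.6, 75.4 and 66.0 TPM against a WT range of 82.5 to 142 TPM, so the groups overlapped. NUPR1 fell by 1.85 (adjusted p = 0.000899), from 1.87 TPM or more in WT to 0.488 TPM or less. GDF15 was at 684, 442, 274, 593 and 943 TPM and fell by 1.48 (adjusted p = 0.0386), although the WT library at 628 TPM lay within that range. The isomerase gene PDIA3 fell by 0.43 and TRIB3 by 0.48 (adjusted p = 0.0341 and 0.00419); on chromosome 15, which carries PDIA3, the median gene differed by -0.39. Median-of-ratios scaling changed this picture: 10.4% of all genes were then higher and 10.4% lower, and 4 of the 40 rose (HSP90B1, CANX and CRELD2 by 0.49, 0.32 and 0.45, and VLDLR by 0.82) while 3 fell (EDEM1, TRIB3 and NUPR1). The count of 6 became 3 without clone 1.1 library 2 or 3 or WT library 1 or 2, and was 1, EDEM1, among libraries of high mitochondrial share. With the replicate number as a block, a pairing not used for this clone, calls went both ways. HSP90B1 and PDIA4 rose by 0.44 each, VLDLR by 0.785, CRELD2 by 0.38, PSAT1 by 0.33 and PDIA6 by 0.32. EDEM1, TRIB3, NUPR1, GDF15, HYOU1, PDIA3, DNAJB9 and SLC7A1 fell. The share of all genes called in that blocked fit is not given here.

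In WM115 clone 1.2, 10 of the 40 genes fell where 22.6% of all genes were called (11.8% higher, 10.8% lower). SLC7A5 was at 185, 287 and 15.1 TPM against 407 to 597 TPM in WT and fell by 2.48 (SE 0.65, adjusted p = 0.0131). SLC3A2 was at 144, 197 and 41.2 TPM and fell by 1.47 (adjusted p = 0.0132). PSAT1 was at 49.9, 60.1 and 19.6 TPM against 72.6, 93.1, 106 and 84.2 TPM in WT and fell by 1.16 (adjusted p = 0.00516). Library 3 was the lowest of the clone in each of these genes. It also stood apart in its cell markers: the melanocytic markers summed to 22.4 TPM, against 347 and 557 TPM in libraries 1 and 2, the leukocyte markers to 758 against 421 and 483 TPM and the endothelial markers to 16.5 against 4.01 and 7.13 TPM. Their part in the results was not tested. XBP1 was at 52.5, 60.8 and 29.5 TPM against 93.4, 99.2, 77.2 and 70.8 TPM in WT and fell by 0.87 (adjusted p = 0.00575). SDF2L1, a small luminal co-chaperone, was at 59.3, 55.9 and 19.1 TPM against 78.5 to 91.8 TPM in WT and fell by 1.08 (adjusted p = 0.00701). GDF15 was at 566, 903 and 151 TPM and fell by 1.82 (adjusted p = 0.0273), and CANX, DNAJC3, CRELD2 and SHMT2 fell by 0.32, 0.71, 0.65 and 0.51. XBP1, SDF2L1 and CRELD2 lie on chromosome 22, whose median gene differed by -0.45 in this clone. Without library 3, calls remained for 3 genes: DNAJC3 at -0.68, SDF2L1 at -0.56 and PSAT1 at -0.68, while SLC7A5 at -1.20 was not called. The stress-induced hormone gene STC2 was at 33.2, 45.5 and 29.6 TPM in this clone, above the WT range of 10.3 to 28.7 TPM, with a difference of 1.13 that was not called (adjusted p = 0.0998).

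Clone 1.3 of WM115, with conflicting labels, had none of the 40 genes called, where limma called 1.06% of all genes (0.653% higher, 0.406% lower) and 2212 genes had an unadjusted p under 0.05. Its HSPA5 values of 329.7, 316 and 265 TPM overlapped with WT, as did GDF15 at 867, 769.9 and 2264 TPM. PSAT1 and SHMT2 lay below all WT libraries and VLDLR above, with differences of -0.71, -0.37 and 0.86 that were not called. PPP1R15A also lay below all WT libraries, at 41.8, 48.3 and 52.1 TPM, and was not called. The share of all genes lying apart from WT in this way was not counted. The chaperone-arm median was -0.11 and the amino-acid median -0.27.

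In A375, 4 of the 17 chaperone-arm genes fell in clone 1.2 and none rose. Limma called 8.53% of all genes in this clone (5.44% higher, 3.09% lower) and 5 of the 40. HSPA5 was at 326, 286, 278 and 359.7 TPM in WT and 185, 270.4, 196 and 120.5 TPM in clone 1.2, and fell by 0.74 (SE 0.22, adjusted p = 0.0461). DNAJC3, an inhibitor of stress-activated kinases, was at 25.6, 23.0, 23.0 and 27.6 TPM in WT and 14.6, 14.4, 15.8 and 14.4 TPM in the clone, and fell by 0.70 (SE 0.12, adjusted p = 0.00102). The groups did not overlap in either gene, and the median gene of chromosome 13, which carries DNAJC3, differed by -0.33. HYOU1 fell by 0.60 (adjusted p = 0.0494) and CRELD2, a secreted chaperone-like protein, by 0.93 (adjusted p = 0.0231). NUPR1 was at 2.39, 1.03, 0.3 and 1.49 TPM in WT and 3.87, 4.69, 4.79 and 1.57 TPM in the clone, and rose by 1.05 (adjusted p = 0.0342), where it fell in WM115 clones 1.1, 4.1 and 4.2; the difference between the lines was not tested for this clone. All 17 chaperone-arm genes lay below 0, with a median of -0.47 against 0.07 over all genes, and the amino-acid median was 0.03. The count of 5 became 1 without clone library 1 or WT library 3, became 2 without clone library 3 or 4 or WT library 1 or 4, and was 0 among libraries of low mitochondrial share.

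In the other A375 clones no gene of the 40 was called by limma with libraries taken as unpaired. In clone 1.1 the background over all genes was 1.04%, split into 0.3% higher and 0.737% lower. Clone 4.1 had 1.31% (0.515% up, 0.797% down) and clone 4.2 had 0.557% (0.138% up, 0.419% down). At an unadjusted p under 0.05 these clones had 1679, 1758 and 1297 genes. The amino-acid arm varied widely between libraries of 1 group. SLC7A5 was at 242, 142, 106 and 649.6 TPM in WT, 114, 238 and 827 TPM in clone 1.1, and 230.2, 510.2 and 903 TPM in clone 4.2. In clone 1.2 the same gene was at 469 to 549 TPM, a narrower range than in WT. All 9 amino-acid-arm genes lay above 0 in clones 1.1 and 4.2, with medians of 0.28 and 0.65, and all 9 lay below 0 in clone 4.1, with a median of -0.40. None of these passed the test.

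A375 clone 4.1 and WT shared 4 replicate numbers, and libraries of the same number deviated together. The labels gave only the number, so the pairing rests on these deviations. With the number as a block, limma called 14.3% of all genes tested (7.94% higher, 6.37% lower) and 10 of the 40. SLC7A5 was at 128, 67.7, 54.9 and 289 TPM in clone 4.1 libraries 1 to 4, each about the same distance below its WT partner. The 4 pair differences were -0.91, -1.05, -0.94 and -1.16, and the blocked difference was -1.02 (SE 0.07, adjusted p = 0.0002695), where the unpaired fit gave an adjusted p of 0.684. PSAT1 was at 146, 33.03, 87.4 and 215 TPM in WT and 79.2, 21.1, 36.9 and 123 TPM in clone 4.1, and fell by 0.88 in the blocked fit (adjusted p = 0.00184). SLC3A2, PHGDH and MTHFD2, a mitochondrial one-carbon enzyme, fell by 0.66, 0.47 and 0.40 (adjusted p = 0.00359, 0.0107 and 0.0397). In all, 5 of the 9 amino-acid-arm genes fell, where 6.37% of all genes tested were called lower. In all 4 pairs 6 of the 9 were below WT, and the share of all genes that were so was not counted. The ATF4 partner CEBPG fell by 0.46, NUPR1 by 0.98 and CHAC1, which degrades glutathione, by 0.61 (adjusted p = 0.0156, 0.0346 and 0.0451). ATF4 mRNA itself differed by -0.09 (adjusted p = 0.623).

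The chaperone arm of clone 4.1 gave a different count in the same blocked fit. EDEM1 was the 1 called gene of 17: it was at 46.1, 35.1, 41.4 and 38.96 TPM in WT and 66.8, 47.4, 57.5 and 69.9 TPM in clone 4.1, and rose by 0.56 (SE 0.09, adjusted p = 0.00618). HSPA5 differed by -0.08 (adjusted p = 0.636), with 2 pairs below 0 and 2 above. GDF15 was at 7.14, 28.9, 8.35 and 6.30 TPM in WT and 12.9, 87.5, 11.7 and 8.75 TPM in the clone, and rose by 0.80 (adjusted p = 0.0258), higher in 4 of 4 pairs.

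**Figure D3:**
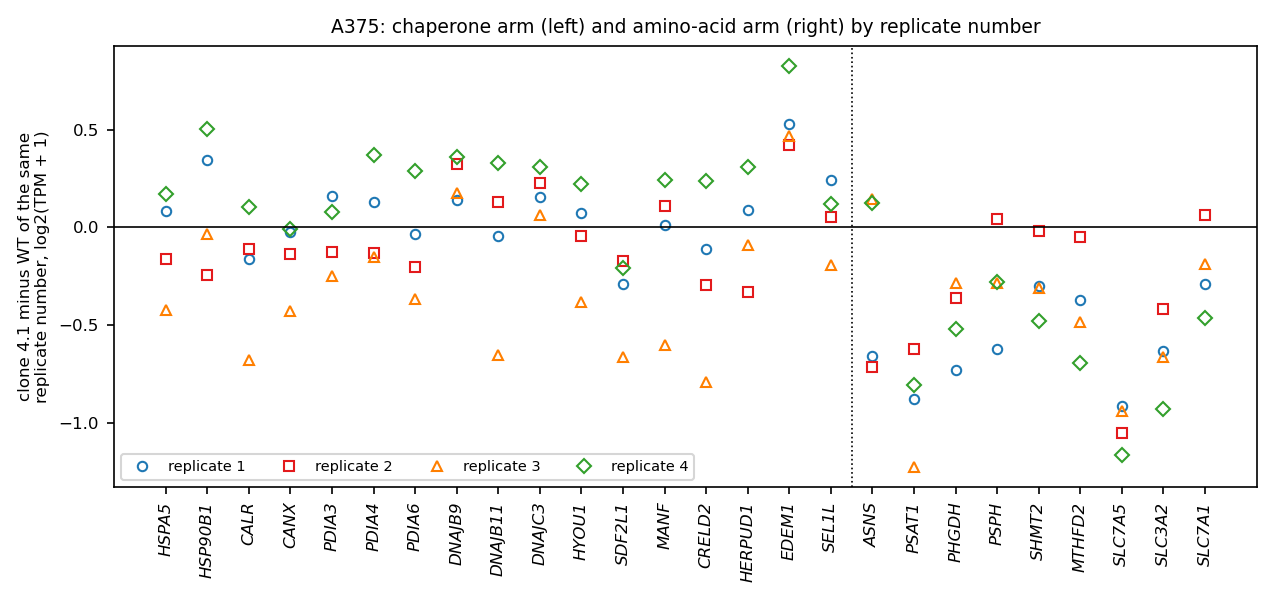
Difference of A375 clone 4.1 from the WT library of the same replicate number, on the log2(TPM + 1) scale, for 17 chaperone-arm genes (left) and 9 amino-acid-arm genes (right), 1 point for each of 4 pairs. SLC7A5 lies between -0.91 and -1.16 in the 4 pairs, whereas HSPA5 lies on both sides of 0.

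ATF4 and DDIT3 were highest in library 2 of A375 WT and of clone 4.1, while the other 6 regulators there lay within the range of the other libraries of their group. DDIT3 was at 62.7 TPM in WT library 2 and at 14.9, 16.6 and 15.4 TPM in the other WT libraries, and at 62.2 TPM in clone 4.1 library 2 and at 16.7, 19.6 and 16.47 TPM in the others. ATF4 was at 792 TPM in WT (others 278 to 556 TPM) and 731 TPM in clone 4.1 (others 353 to 419 TPM). ASNS was at 32.7 TPM in WT library 2 and 30.6 to 82.1 TPM in the others. In clone 4.1 it was lowest in library 2, at 19.6 TPM, against 34.0 to 89.5 TPM in the others. These 2 libraries also had the highest ribosomal protein shares of A375, 27.3% and 28.1%, and the part of that share in these values was not tested.

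**Figure D4:**
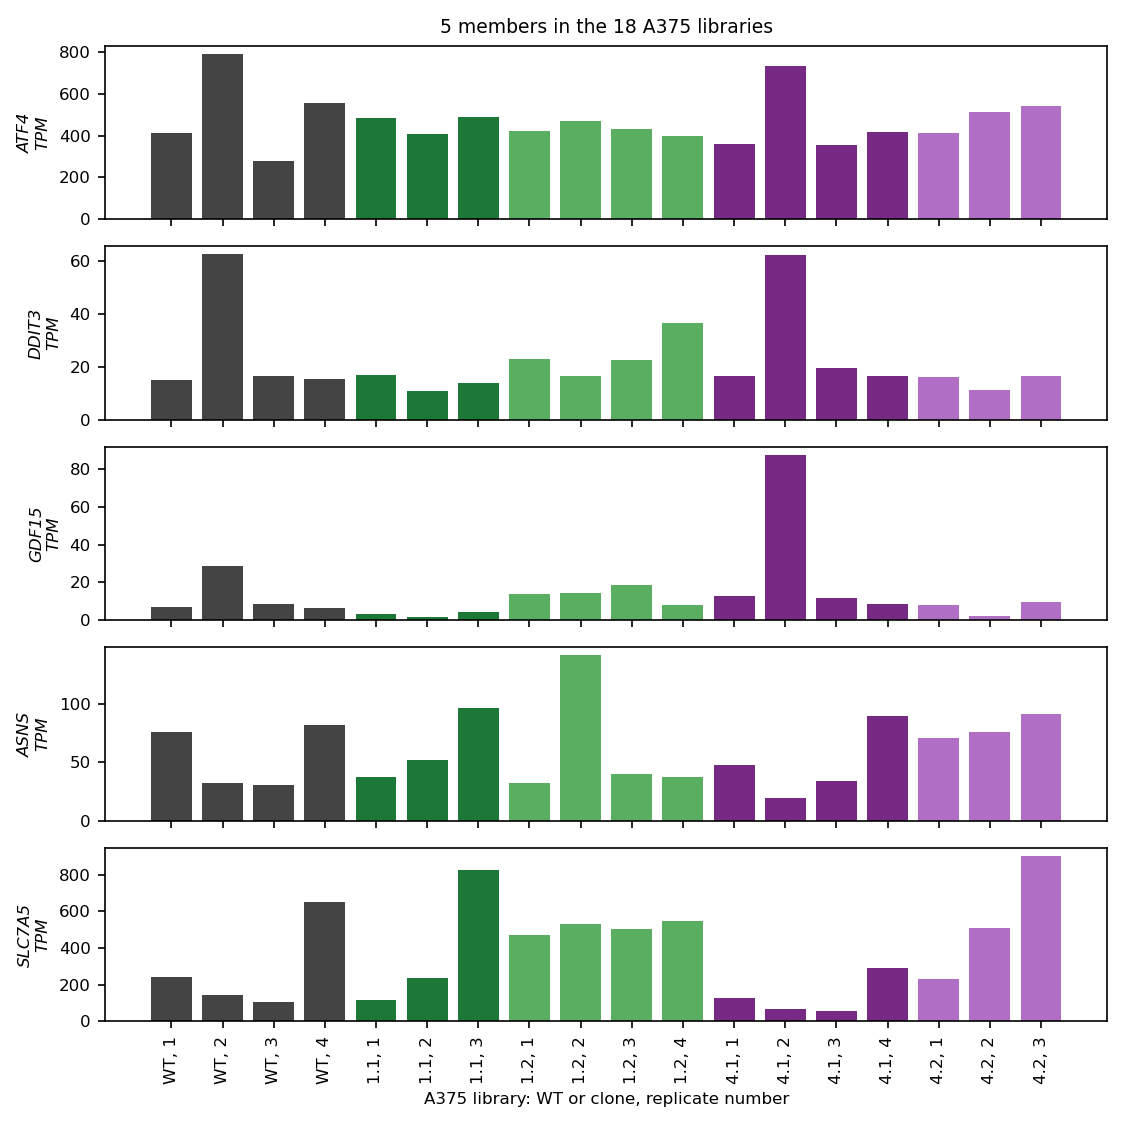
TPM of ATF4, DDIT3, GDF15, ASNS and SLC7A5 in the 18 A375 libraries, as bars from 0. DDIT3 reaches 62.7 and 62.2 TPM in library 2 of WT and of clone 4.1, and SLC7A5 ranges from 54.9 to 903 TPM.

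**Figure D5:**
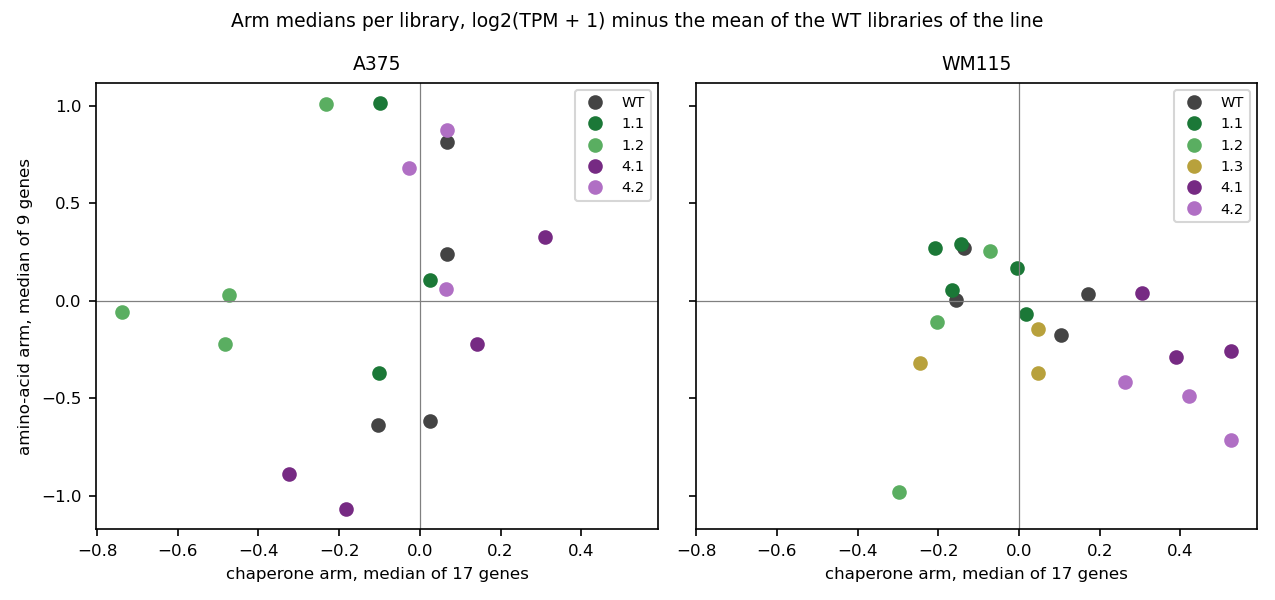
Median log2 difference of the chaperone arm (horizontal axis) and of the amino-acid arm (vertical axis) in each library, relative to the mean of the WT libraries of its line, with A375 and WM115 in separate panels. The 6 libraries of WM115 clones 4.1 and 4.2 lie at 0.26 to 0.53 on the chaperone axis, and A375 libraries spread from -1.07 to 1.01 on the amino-acid axis.

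Genes of both arms were called between the unedited lines, at a share no higher than that of all genes. Of all genes tested, 48.8% were called between WM115 WT and A375 WT (25.8% higher in WM115, 23% lower), as were 17 of the 40, 12 higher and 5 lower in WM115. GDF15 was at 6.30 to 28.9 TPM in A375 and 628 to 2476 TPM in WM115, a difference of 7.06 (SE 0.59, adjusted p = 9.403e-12). In the chaperone arm 7 genes were higher in WM115 and none lower, among them SDF2L1 at 85.5 ± 5.98 against 39.8 ± 12.2 TPM (SD, n = 4 each; adjusted p = 0.000843 by limma) and DNAJB11, different by 0.96 (adjusted p = 0.0001025). XBP1 was higher by 0.88 (adjusted p = 0.000727). ATF4 and 4 genes linked to it were lower in WM115: ATF4 differed by -0.87 (adjusted p = 0.00161), TRIB3 by -0.60, CHAC1 by -1.51, ASNS by -1.91 and MTHFD2 by -1.22. ASNS was at 76.2, 32.7, 30.6 and 82.1 TPM in A375 and 8.02, 9.29, 21.0 and 15.8 TPM in WM115, without overlap. The other 7 genes of the amino-acid arm were not called, among them SLC7A5 and SLC3A2 at 1.26 and 0.90 (adjusted p = 0.110 and 0.102). STC2, NUPR1 and PPP1R15A were higher in WM115 by 1.25, 0.97 and 0.63 (adjusted p = 0.01995, 0.0166 and 0.0230). With the 11 group means as units, so that the clones also entered, PPP1R15A differed by 0.04 and NUPR1 by 0.21, and neither was called. The lines also differed in the mitochondrial and ribosomal protein shares given above, whose part was not tested.

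Whether the 2 deleted regions differed was tested over 8 clone means, with the line as a covariate and clone 1.3 left out. No gene was called (0% of all genes tested; 754 had an unadjusted p under 0.05 by limma), nor for the interaction of region and line (0%; 532 genes). All 17 chaperone-arm genes were lower in R1 than in R4 clones, with a median of -0.42 against 0.04 over all genes, and 8 of the 9 amino-acid genes were higher, with a median of 0.23. HYOU1 differed by -0.74 (SE 0.18), HSPA5 by -0.63 (SE 0.17), XBP1 by -0.64 (SE 0.21), PDIA4 by -0.55 (SE 0.14) and NUPR1 by 1.04 (SE 0.47), each with an adjusted p of 0.984. These differences thus did not pass the test with 4 clones a region.

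Requiring a log2 difference of at least 1 as well left SLC7A5, SLC3A2, GDF15, PSAT1 and SDF2L1 in WM115 clone 1.2 (7.61% of all genes passed), and NUPR1 and GDF15 in clone 1.1 (4.88%). It left PDIA4, NUPR1 and GDF15 in clone 4.1 (7.57%), and GDF15, NUPR1, SLC3A2, VLDLR, PPP1R15A and SLC7A1 in clone 4.2 (6.6%). In A375 it left NUPR1 in clone 1.2 (4.01%), SLC7A5 in the blocked fit of clone 4.1 (1.61%) and none of the 40 in clones 1.1, 4.1 and 4.2 unpaired (0.731%, 0.653% and 0.473%). None was left in WM115 clone 1.3 (0.618%) or between the regions (0%), and 6 were left between the WT lines (20%).

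The split of XBP1 mRNA into its forms was read from the transcript table. XBP1-201 carries a segment of 26 bases, and 2 of the 7 XBP1 transcripts have the junction left after ERN1 cuts it out. A short transcript, XBP1-205, holds neither the segment nor the junction and counts only in the total. The segment is shown in capitals because the share below rests on it, from the GENCODE 29 transcript with 12 bases on each side. The same product results if the segment is placed up to 6 bases further on.
XBP1-201, bases 566 to 591 in capitals: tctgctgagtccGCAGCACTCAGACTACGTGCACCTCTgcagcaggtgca
The spliced forms made up 0 to 24.2% of XBP1 transcript TPM across the 39 libraries. In WM115 the share was 9.10 ± 4.87% in WT (SD, n = 4) and 15.2 ± 3.81% in clone 1.1 (SD, n = 5), a difference of 6.09 percentage points with an exact two-sided permutation p of 0.0556 (0.5 adjusted over 9 clones; the smallest possible is 0.00794). In the R4 clones it was 8.64 ± 6.77% and 14.1 ± 5.31% (n = 3 each; exact permutation p = 0.943 and 0.286). In A375 WT it was 10.7 ± 6.58% (n = 4). For the other clones the smallest possible p is 0.0286. After adjustment over 9 clones 1 clone alone could not pass the threshold, so the lack of a call says little. An estimate that divides reads among near-identical transcripts adds error that these values do not show.

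Other genes of the same pathways, from lists beside the 40, were counted in the same fits. All genes called higher and lower were 8.59% and 15.6% in WM115 clone 4.1, 6.71% and 13.6% in clone 4.2, and 5.44% and 3.09% in A375 clone 1.2. Of 28 further unfolded protein response genes tested, 7 rose and 1 fell in WM115 clone 4.1, among them CREB3 at 0.66, the ubiquitin ligase SYVN1 at 0.57 and the signal peptidase subunit SPCS3 at 0.49. In clone 4.2, 4 rose and 1 fell, with DERL3 at 0.87, HSPA13 at 0.76 and TMED2 at 0.49. Their medians were 0.21 and 0.09. Of 12 tRNA synthetases linked to ATF4, 1 rose and 2 fell in clone 4.1, and none rose and 6 fell in clone 4.2, with YARS1 at -0.82, AARS1 at -0.65 and GARS1 at -0.52. The 2 falls in clone 4.1 are near the background. Of 21 other ATF4 targets, 2 rose and 1 fell in clone 4.1, and 3 rose and 2 fell in clone 4.2, the falls again not above the background: VEGFA differed by 1.86 and DDIT4 by 1.47, while ATF3 differed by -1.38. Of 12 cytosolic heat shock genes, a separate stress response, none rose and 3 fell in each R4 clone, with HSPA1B at -0.83 and -0.89. Some of the named genes were also called in other WM115 clones, for which counts are not given here. DERL3 and DDIT4 differed by 0.85 and 1.15 in clone 1.1 and VEGFA by 1.79 in clone 1.2. YARS1 differed by -0.60 in clone 1.2 and -0.69 in clone 1.3. In A375 clone 1.2, none rose and 2 fell of 27 further unfolded protein response genes.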

How the data were processed

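The authors deposited a gene table and a transcript table in TPM; per the submitters' processing notes, DRAGEN and GRCh38 were used, with version, annotation and counting settings not given in the sources used here. Repeated identical lines were dropped, and 6 sample columns per table that matched no label were not used. Values became log2(TPM + 1). Genes at 1 TPM or more in at least 3 libraries were tested (16692 in A375, 16997 in WM115, 18662 across lines, 18099 over clones) with limma 3.58.1 in R 4.3.3, a variance trend and Benjamini-Hochberg adjustment; each line's groups shared 1 fit. Fits were tested on simulated data. Depth is unknown, so no counting error is given. The XBP1 share used an exact permutation test over libraries. Replicate numbers were taken to pair libraries only for A375 clone 4.1 and WT, where same-numbered deviations correlated at 0.33, 0.78, 0.34 and 0.70; that blocked fit tested 15250 genes. The 40 genes and all lists were chosen with earlier results of these data known. Detailed values follow a rule that took 23 genes: HSPA5, XBP1, ATF4, DDIT3 and ASNS, genes called in 3 or more clones of a line or in both clones of a region in both lines, the 2 largest called differences of each role and the 5 largest between the lines; others of the 40, such as HSP90B1 and CALR, were added after their values were seen. Libraries of high mitochondrial share have 7.5% or more in WM115 and 2.5% or more in A375. The alternatives were another pseudocount, other filters and scalings, 2-group fits, a replicate block, single libraries left out and a log2 minimum of 1.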

Additional observations from a re-analysis of the deposited data

Results flagged for a closer look

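Of 115 sets of values (23 genes in the 5 groups of 4 or 5 libraries), 11 had 1 library far from the rest by Dixon's 95% criterion, where chance gives about 1 in 20. DDIT3 stood apart in library 2 of A375 WT at 62.7 TPM and of clone 4.1 at 62.2 TPM, and GDF15 in the same libraries at 28.9 and 87.5 TPM. In A375 clone 1.2, ASNS was at 142 TPM in library 2, PPP1R15A at 79.3 TPM and SEL1L at 23.9 TPM in library 4. NUPR1 was at 0.475 TPM in A375 clone 4.1 library 4 and listed at 0 in the others. PDIA4 was at 171 TPM in A375 WT library 1, SEL1L at 37.5 TPM in WM115 WT library 1, and ERN1 at 5.54 TPM in WM115 clone 1.1 library 1.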

How the results depend on the processing

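The sign was checked across the alternative runs only for the 23 genes taken by the rule. None of their calls changed sign under any of these runs. Their 35 calls in clones also kept their sign after the median of their chromosome was subtracted. Of those 35, 8 stayed past the threshold in every alternative run for them, as did 5 of 12 between the lines. The log2 minimum of 1 is left out of these 2 counts and is given on its own below. Counts below are of the 40 genes called, and the causes of the moves were not tested. Unless stated above, the share of all genes called in an alternative fit is not given here. A changed count therefore cannot be read as particular to the 40 genes. In A375 clone 1.2 the 5 calls became 3 with a pseudocount of 0.1 or without a variance trend, 2 with a mean TPM of at least 5, with no filter or with only the 2 groups fitted, and 0 among libraries of low mitochondrial share. In WM115 clone 1.1 the 6 calls became 3 with no filter, 10 with only the 2 groups and 1 among libraries of high mitochondrial share; in clone 1.2 the 10 became 2 with only the 2 groups and 4 among libraries of high share. In clone 4.1 the 12 became 7 with no filter and 7 with the mitochondrial term, and in clone 4.2 the 17 became 6 among libraries of high share, a fit not run for clone 4.1, which had 1 such library. With a log2 difference of at least 1 also required, 1 gene was left in A375 clone 1.2, 2, 5, 3 and 6 in WM115 clones 1.1, 1.2, 4.1 and 4.2, and 6 between the lines. The replicate block gave 10 calls in A375 clone 4.1 (0 unpaired). For every clone the labels gave only a number. In the other clones the same-numbered deviations did not all correlate positively, so the pairing is not used. In WM115 clone 1.1 they correlated at 0.24, -0.04, 0.33 and -0.0048. For the clones without pairing, the block gave 0 in A375 clone 1.2, and 14, 0, 6 and 9 in WM115 clones 1.1, 1.2, 4.1 and 4.2. The 14 in WM115 clone 1.1 held both rises and falls, as named above. Median-of-ratios scaling moved the median of all genes from -0.12 to -0.02 in WM115 clone 1.1 and from -0.10 to 0 in clone 4.1, and the chaperone-arm median to 0.08137 and 0.51 there and to -0.003349 in A375 clone 4.2. A wider ATF4 list moved the amino-acid median of WM115 clone 1.1 to -0.11.

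With 1 library left out at a time, the count ranged from 1 to 6 in A375 clone 1.2, stayed at 0 in A375 clones 1.1, 4.1 and 4.2 and WM115 clone 1.3, and ranged from 3 to 7, 3 to 12, 5 to 10 and 7 to 19 in WM115 clones 1.1, 1.2, 4.1 and 4.2, and from 15 to 17 between the lines. For the regions and their interaction it was 0 with any clone left out. The chaperone-arm median ranged from -0.12 to -0.04906, -0.55 to -0.39, -0.16 to 0.08 and -0.01162 to 0.10 in A375 clones 1.1, 1.2, 4.1 and 4.2, and from -0.09 to -0.01, -0.35 to -0.16, -0.13 to 0.02, 0.32 to 0.42 and 0.36 to 0.51 in WM115 clones 1.1, 1.2, 1.3, 4.1 and 4.2. In the same order, the amino-acid median ranged from -0.09 to 0.63, -0.15 to 0.34, -0.64 to -0.13 and 0.35 to 0.88 in A375, and from 0.05 to 0.26, -0.42 to 0.09, -0.36 to -0.22, -0.27 to -0.08 and -0.65 to -0.29 in WM115. The difference in the spliced share of XBP1 ranged from -10.7 to 1.44, -8.33 to -2.91, -4.92 to 1.79 and -3.60 to 3.29 percentage points in A375, and from 4.26 to 7.56, -0.548 to 6.19, -4.51 to 1.47, -3.27 to 3.29 and 3.17 to 8.07 in WM115. TPM keeps no depth, so the precision of low values such as those of NUPR1 is unknown.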
